A study of Rattus norvegicus with 192 samples.

Results

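The genes described here encode nuclear-coded parts of the mitochondrial respiratory chain, measured on Illumina microarrays in 2 brain regions of adult female Sprague Dawley rats. They were chosen by gene symbol alone: every array gene whose symbol began with Nduf followed by a, b, c, s or v, with Uqcr, with Cox4 to Cox8, or with Atp5, together with Sdha, Sdhb, Sdhc, Sdhd, Cyc1 and Cycs. The rule found 70 of the 13336 named genes, each with 1 probe, and Cyc1 was not among the named genes. They were 30 genes of complex I, 4 of complex II, 4 of complex III, the cytochrome c gene Cycs, 11 of complex IV and 13 of complex V. The rule also took in 7 genes, Ndufaf1 to Ndufaf7, whose products help to assemble or modify complex I without being part of it. Ndufs6-ps1 is annotated as a pseudogene. Ndufa10l1 has Ndufa10 among its former symbols. Sequences of these genes were not compared, and their probes may take up each other's transcript, so values of both are uncertain.

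The respiratory chain sits in the inner mitochondrial membrane. Complex I takes electrons from NADH and complex II takes them from succinate, complex III passes them to cytochrome c, and complex IV hands them to oxygen. The proton gradient built on the way drives ATP synthase, complex V. Neurons depend on this chain for most of the ATP that restores ion gradients after firing. Some complex IV subunits exist as a general form and as a heart and skeletal muscle form encoded by separate genes.

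The rats differed in the diet of the dam during gestation days 1 to 21. Ethanol dams drank a liquid diet with ethanol at 36% of calories, pairfed dams got a liquid diet with maltose-dextrin in place of ethanol in the amount an ethanol partner ate, and control dams ate laboratory chow freely. Daughters were weaned on postnatal day 22 and injected at the tail base at 50 to 65 days of age. Adjuvant rats got an arthritis-inducing dose of complete Freund's adjuvant (0.1 ml, 12 mg/ml) and saline rats got saline; tissue was taken on day 16 or day 39 after the injection. In the prefrontal cortex (PFC) each diet had 9 adjuvant rats on each day, 5 saline rats on day 16 and 6 saline rats on day 39, which makes 87 arrays. The hippocampus (HPC) of the same cohort gave 84 arrays, with the same group sizes except 8 control and 7 pairfed adjuvant rats on day 39. Each rat enters once per tissue. The labels do not tie rats to litters, so litters could not be used as a block.

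The number of probes detected per array lay between 7578 and 10949 in PFC (median 9868) and between 8140 and 11235 in HPC (median 10136). The tissue labels were checked against markers on the log2 intensity scale. Lamp5, a cortical marker, averaged 12.44 in PFC and 10.37 in HPC, and Neurod6, from the hippocampal list, 10.09 in PFC and 11.34 in HPC. Over 33 probes whose values correlated between tissues in the labelled pairs, 83 of 84 rats had their PFC array nearest to their own HPC array; these probes were chosen on the same pairs, so the count is a description and no independent check of the labels. The exception was the PFC array of pairfed saline day 16 replicate 3. Single-gene differences that rest on this array are also given without it.

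A feature that the rule did not use is the sequence upstream of the genes. NRF1 and the ETS factor GABPA are transcription factors known in mammals for binding promoters of many respiratory chain genes. RefSeq promoters (build GRCr8, 250 bases before to 50 bases after the gene start, 300 bases in all) matched 61 of the 70 genes. The NRF1 core GCGCATGC or its reverse complement GCATGCGC was in 12 of the 61 promoters (19.7%), against 2.66% of the 27457 promoters of all genes. The ETS core CCGGAAGT or its reverse complement ACTTCCGG was in 6 of the 61 (9.84%), against 4.02% of all promoters, and no gene had both. Complex V held 4 of the NRF1 matches among its 12 promoters. These counts describe letters in the windows and show no binding. The promoters below are examples from complex V, cytochrome c, complex III and complex IV, chosen to show both cores. They are written 5′ to 3′ on the strand of the gene with the core in capitals, NRF1 in Atp5po and Cycs and ETS in Uqcrh and Cox5b. In Atp5po the core and its reverse complement overlap in a single palindrome.
Atp5po promoter, chr11:44657434-44657733, minus strand: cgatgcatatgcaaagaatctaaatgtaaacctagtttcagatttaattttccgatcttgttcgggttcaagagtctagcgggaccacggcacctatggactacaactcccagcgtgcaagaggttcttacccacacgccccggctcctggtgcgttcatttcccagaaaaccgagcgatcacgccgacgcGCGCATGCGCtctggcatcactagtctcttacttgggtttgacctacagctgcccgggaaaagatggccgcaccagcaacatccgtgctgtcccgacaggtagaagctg
Cycs promoter, chr4:80984718-80985017, minus strand: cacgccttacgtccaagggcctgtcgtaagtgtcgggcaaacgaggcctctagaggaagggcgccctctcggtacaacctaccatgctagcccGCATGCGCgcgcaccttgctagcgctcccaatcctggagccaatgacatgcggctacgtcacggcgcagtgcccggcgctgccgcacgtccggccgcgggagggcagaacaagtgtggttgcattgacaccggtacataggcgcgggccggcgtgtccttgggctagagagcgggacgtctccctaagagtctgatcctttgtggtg
Uqcrh promoter, chr5:134790833-134791132, minus strand: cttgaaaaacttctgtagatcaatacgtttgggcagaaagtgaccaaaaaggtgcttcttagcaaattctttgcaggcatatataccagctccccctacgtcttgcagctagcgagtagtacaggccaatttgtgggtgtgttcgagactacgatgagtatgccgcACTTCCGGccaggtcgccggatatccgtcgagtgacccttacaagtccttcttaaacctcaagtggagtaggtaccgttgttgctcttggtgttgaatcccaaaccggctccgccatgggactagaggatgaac
Cox5b promoter, chr9:46417587-46417886, plus strand: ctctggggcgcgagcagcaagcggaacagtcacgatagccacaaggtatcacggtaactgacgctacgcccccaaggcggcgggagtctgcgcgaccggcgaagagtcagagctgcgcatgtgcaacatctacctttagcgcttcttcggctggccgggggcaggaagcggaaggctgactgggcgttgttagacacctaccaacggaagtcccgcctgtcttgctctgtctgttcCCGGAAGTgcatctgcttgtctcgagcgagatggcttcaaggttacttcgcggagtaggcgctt

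Most of the genes gave strong signal in both tissues. Of the 70, 59 were detected on every array in PFC and 59 on every array in HPC, and 54 in PFC and 53 in HPC stood above the 90th percentile of all tested probes. Signal depends on the probe as well as on the transcript, so the ranges below do not rank the genes. Mean log2 signals of complex I probes reached 13.40 in PFC and 13.24 in HPC for Ndufb9. Complex II probes averaged between 10.53 and 12.28 in PFC and between 10.25 and 12.19 in HPC, with the flavoprotein subunit Sdha at the low end and the membrane anchor Sdhc at the high end. Complex III probes lay between 11.61 (Uqcrc1, a core protein) and 13.35 (Uqcrh, the hinge protein) in PFC and between 11.55 and 13.23 in HPC. In complexes II and III the same probes thus had the lowest and the highest mean in both tissues. Cycs averaged 12.85 in PFC and 12.93 in HPC. Complex IV probes ran from 5.03 (Cox8c) to 13.90 (Cox6a1) in PFC and from 4.92 to 13.88 in HPC. Assembly factor probes ran from 6.68 (Ndufaf1) to 10.30 (Ndufaf5) in PFC and from 6.49 to 10.07 in HPC.

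**Figure D1:**
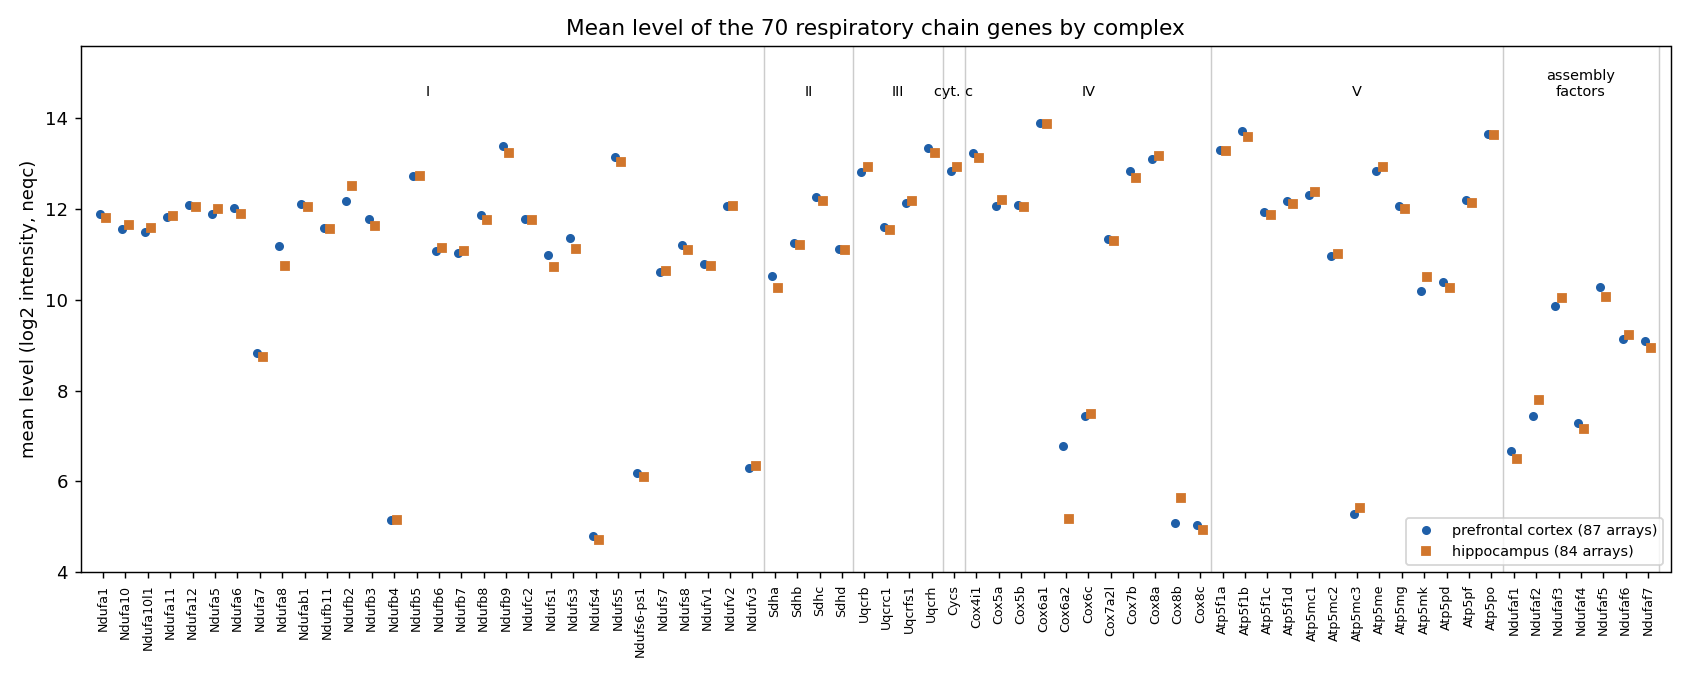
Mean level of each of the 70 genes (vertical axis, log2 intensity), grouped by complex with genes in alphabetical order along the horizontal axis. Circles are means over 87 PFC arrays and squares means over 84 HPC arrays; the 2 symbols lie close together for nearly every gene, and Cox6a2 has them widest apart (6.79 in PFC and 5.17 in HPC).

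A few members were dim. Ndufs4, a complex I subunit, was detected on 1 of 87 PFC arrays and 0 of 84 HPC arrays, missed the filter of 5 arrays and was not tested, which leaves 69 tested genes per tissue. Cox8c, an isoform described in testis, was detected on 11 PFC and 6 HPC arrays and Ndufb4 on 17 PFC and 18 HPC arrays. Atp5mc3, which encodes the c ring of ATP synthase as Atp5mc1 and Atp5mc2 do, was detected on 29 PFC and 44 HPC arrays, while those other genes were detected on every array. Each gene was read by 1 probe, so a dim signal does not show that the transcript was scarce. Differences of the dim genes are differences near background.

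The respiratory chain probes had much the same level in both tissues. Over the 84 rats with both tissues, 44 of the 69 tested genes averaged higher in PFC, and the median PFC minus HPC difference was 0.05 on the log2 scale, against 0.01 for all 14441 probes. Only Cox6a2 and Cox8b differed by more than 0.5, which is 2.90% of the genes against 8.99% of all probes. Without background correction the Cox8b difference, PFC minus HPC, was -0.25 in place of -0.57 and no longer passed that size. Each chip carried 1 tissue, so tissue and chip cannot be told apart and these differences were not tested. Cox6a2, the heart and muscle form of subunit 6a, averaged 6.80 ± 0.48 in PFC and 5.17 ± 0.49 in HPC (SD, n = 84 rats), and was detected on 85 of 87 PFC arrays and 26 of 84 HPC arrays. The difference of 1.63 (SD 0.68) had the same direction in 82 of 84 rats and was 0.71 without background correction. PFC group means of Cox6a2 lay between 6.46 and 7.08, and HPC group means between 4.99 and 5.50, so the 12 groups of the tissues did not overlap in their means. Pvalb, a marker of the interneurons in which Cox6a2 is known to be expressed in mouse, averaged 8.90 in PFC and 8.04 in HPC, and its part in the Cox6a2 difference was not tested. Cox6a1, the general form, averaged 13.90 ± 0.41 in PFC and 13.88 ± 0.36 in HPC. Ndufa8, an accessory subunit of complex I, differed by 0.43 and was higher in PFC in 69 of 84 rats. Ndufb2, a subunit of the membrane arm of complex I, differed by -0.34 and was higher in PFC in 27 of 84 rats. Without the rat whose arrays did not match, the PFC minus HPC differences were 1.65 for Cox6a2, -0.57 for Cox8b, 0.43 for Ndufa8 and -0.34 for Ndufb2.

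**Figure D2:**
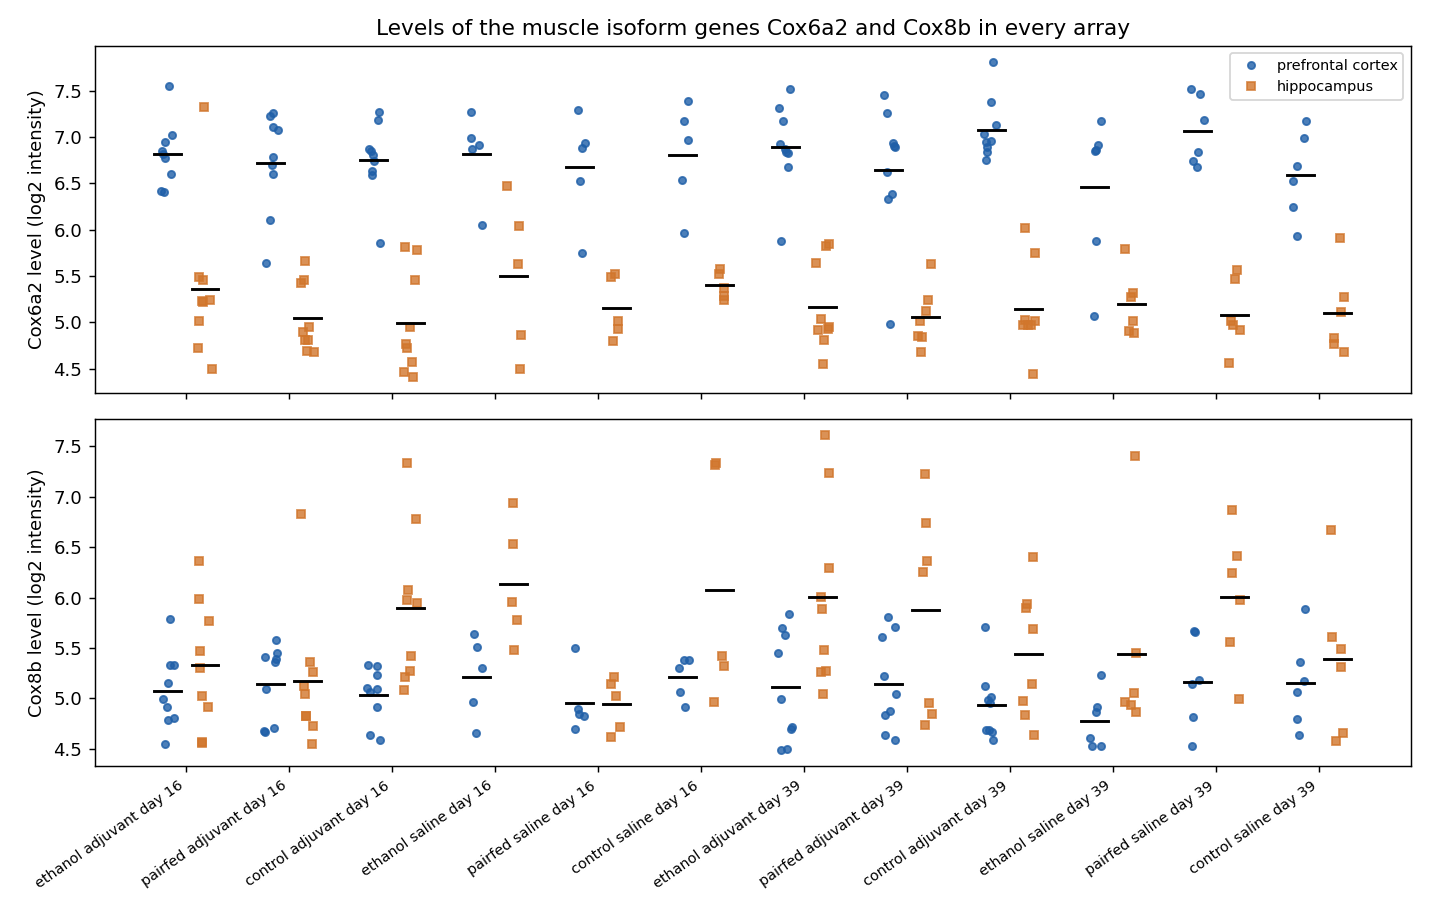
Level of Cox6a2 (top) and Cox8b (bottom) in every array (vertical axes, log2 intensity), by group along the horizontal axis. Circles are PFC, squares HPC and bars group means; Cox6a2 group means in PFC (6.46 and 7.08) all lie above those in HPC (4.99 and 5.50), while Cox8b spreads up to 7.61 in HPC.

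Cox8b, the heart and muscle form of subunit 8, had the opposite direction. It averaged 5.06 ± 0.37 in PFC and 5.63 ± 0.81 in HPC (SD, n = 84 rats), was detected on 19 of 87 PFC and 41 of 84 HPC arrays, and was higher in PFC in 26 of 84 rats. Its HPC values ran from 4.55 to 7.61 and spread widely within groups. The lowest, median and highest values were 5.04, 5.89 and 7.61 in ethanol adjuvant day 39 rats and 4.97, 5.42 and 7.33 in control saline day 16 rats. The same HPC arrays varied in Ttr, the transthyretin gene of the choroid plexus, from 7.76 to 14.80, and Ttr averaged 5.24 in PFC and 11.49 in HPC. After removal of group and chip means, Cox8b and Ttr correlated across the 84 HPC arrays with Pearson's r 0.70 and Spearman’s rho 0.68 (permutation p 1e-05 each, the smallest that 100000 resamples can give; adjusted p 2.2e-05 and 2.7e-05 over 11 relations). The relations of Cox8b to choroid plexus probes, here and below, were not planned. Their p-values are adjusted over 11 relations and not over all probes, so they are a description. Without the 2 arrays farthest from the median of Ttr, r was 0.66. Within single chips r ranged from -0.17 to 0.95 and was above 0 on 7 of 8 chips.

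Other choroid plexus probes gave r 0.63 and rho 0.55 for Aqp1, r 0.51 and rho 0.45 for Folr1 and r 0.49 and rho 0.42 for Kl, with adjusted permutation p of at most 0.00020. The relation to Cox8b was thus shared by 4 of the 5 choroid plexus probes. The exception, Kcnj13, had r -0.00 and rho 0.05 (adjusted permutation p 0.986). In PFC, Cox8b and Ttr had r 0.10 and rho 0.02 over 87 arrays (adjusted permutation p 0.452). Aqp1 had r 0.10 and Kl r 0.02 in PFC (adjusted permutation p 0.452 and 0.922). Kcnj13 went the other way in PFC, with r -0.25 and rho -0.25 (adjusted permutation p 0.031 and 0.034). Its r was above 0 on 1 of 8 chips. Among all probes, those nearest to Cox8b in HPC were Cltrn with r 0.75 and Pla2g5 with r 0.73 over 84 arrays. In dissected tissue, more cells of a type and more RNA per cell cannot be told apart.

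Adjuvant against saline, the comparison with the largest groups, gave no call among the respiratory chain genes. On day 16, with 27 adjuvant and 15 saline rats and the 3 diets weighted equally, 0 of 69 genes passed an adjusted p of 0.05 in PFC (limma with Benjamini-Hochberg adjustment over 15250 probes, of which 0.131% were called) and 0 of 69 in HPC (15320 probes, 0.0587% called). At an unadjusted p below 0.05 there were 2 genes in PFC, against 4.96% of probes, and 1 gene in HPC, against 6.47%. On day 39 limma again called 0 of 69 genes in PFC and 0 of 69 in HPC (0% and 0% of probes). At an unadjusted p below 0.05 there were then 2 genes in PFC, against 5.34% of probes, and 0 in HPC, against 5.03%. Median log2 differences of the 69 genes were -0.00 in PFC and -0.02 in HPC on day 16, and 0.02 in PFC and 0.01 in HPC on day 39.

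The 95% interval of the adjuvant minus saline difference stayed within a 1.5-fold change either way for 68 of 69 genes on day 16 and 68 on day 39 in PFC, and for 67 on day 16 and 68 on day 39 in HPC. These intervals hold for quantile-normalized values, which give every array the same distribution. With each array scaled to its median instead, the median of all HPC probes on day 16 was -0.12 and that of the 69 genes -0.27. The 2880 probes with a mean signal above 9 had a median of -0.27 under that scaling, and 23 of the 69 genes (33.3%) reached an unadjusted p below 0.05, beside 42.2% of those bright probes. On day 39 the HPC medians under median scaling were -0.21 for the genes, -0.24 for bright probes and -0.10 for all probes, and 10 of the 69 genes (14.49%) reached an unadjusted p below 0.05, beside 34.7% of bright probes. In PFC the genes' medians under median scaling were 0.08 on day 16 and 0.05 on day 39, beside 0.08 and 0.04 for bright probes. Under that scaling the median of the genes lay within 0.03 of the median of bright probes in each of these 4 comparisons, and none of the genes was called.

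By complex, the day 16 medians in PFC were 0.01 for complex I, -0.00 for complex II, -0.01 for complex III, -0.00 for complex IV, 0.02 for complex V and -0.06 for the assembly factors. In HPC they were -0.01 for complex I, -0.05 for complex II, -0.04 for complex III, 0.02 for complex IV, 0.00 for complex V and -0.14 for the assembly factors. All 4 complex II genes had a negative estimate in HPC, where 48.1% of all probes had a positive one. None of these genes reached an unadjusted p of 0.05. On day 39 in PFC, 10 of 11 complex IV genes had a positive estimate, with a median of 0.07, and none reached an unadjusted p of 0.05. In HPC 5 of 11 were positive, with a median of -0.01. Of all probes, 50.8% had a positive estimate in PFC and 48.4% in HPC on that day.

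The genes with the smallest p show the size of the shifts, given as lowest, median and highest value of each group. On day 16 in PFC, Ndufs8, an iron-sulfur core subunit of complex I, had 10.82, 11.38 and 11.77 in adjuvant rats, against 10.06, 11.26 and 11.45 in saline rats. The difference was 0.24 ± 0.11 (SE; limma adjusted p = 0.970), and it was 0.20 (adjusted p = 1.00) without the array that did not match its rat, with an unadjusted p of 0.068. Its groups overlapped. Ndufaf4 had 5.37, 7.19 and 7.76 in adjuvant rats, against 6.68, 7.49 and 7.997 in saline rats, a difference of -0.36 ± 0.16 (SE; limma adjusted p = 0.987), or -0.38 ± 0.17 without that array. On day 39 in PFC, Sdhc had 10.62, 12.18 and 12.75 in adjuvant rats, against 12.12, 12.47 and 13.18 in saline rats, a difference of -0.35 ± 0.10 (SE; limma adjusted p = 0.481). The groups overlapped, and the lowest Sdhc values were all from adjuvant rats. Atp5po, the stalk subunit of ATP synthase also called OSCP, had 11.95, 14.003 and 14.17 in adjuvant rats, against 12.23, 13.37 and 14.05 in saline rats, a difference of 0.37 ± 0.13 (SE; limma adjusted p = 0.788). In HPC on day 16, Atp5f1d, the delta subunit of ATP synthase, had 11.81, 12.14 and 12.83 in adjuvant rats, against 11.10, 11.96 and 12.50 in saline rats, a difference of 0.28 ± 0.12 (SE; limma adjusted p = 0.695). Both pairs of groups overlapped.

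On the same day 16 arrays, 3 of 5 blood markers in PFC and 3 of 6 in HPC were called higher in adjuvant rats, and 2 of 5 endothelial markers were called higher in each tissue. Among all probes, 19 of 15250 were called higher in PFC and 9 of 15320 in HPC. The marker lists were chosen with earlier results of these data known, so these counts are a description. Group medians of the mean hemoglobin probe level were 9.96 to 10.12 in adjuvant rats and 9.50 to 9.70 in saline rats in PFC, and 9.55 to 9.77 in adjuvant rats and 8.75 to 9.40 in saline rats in HPC. With that level as a covariate, limma still called 0 of 69 genes. Other gene lists, of energy metabolism and of ribosomal proteins, gave no calls either. Lists of enzymes of the tricarboxylic acid cycle (14 genes tested) and of glycolysis (15), membrane carriers and channels (15), biogenesis regulators (15 in PFC, 16 in HPC), assembly factors of complex IV (11) and of complexes III and V (8), mitochondrial antioxidants (9), and ribosomal proteins of mitochondria (58) and cytosol (71 in PFC, 70 in HPC) had 0 genes called by limma in all 28 comparisons. Of all probes, at most 0.131% were called in any comparison, so 0 calls in lists of this size is near the share over the array. The day 16 adjuvant minus saline medians of these lists lay between -0.05 and 0.11 in PFC and between -0.13 and 0.06 in HPC.

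**Figure D3:**
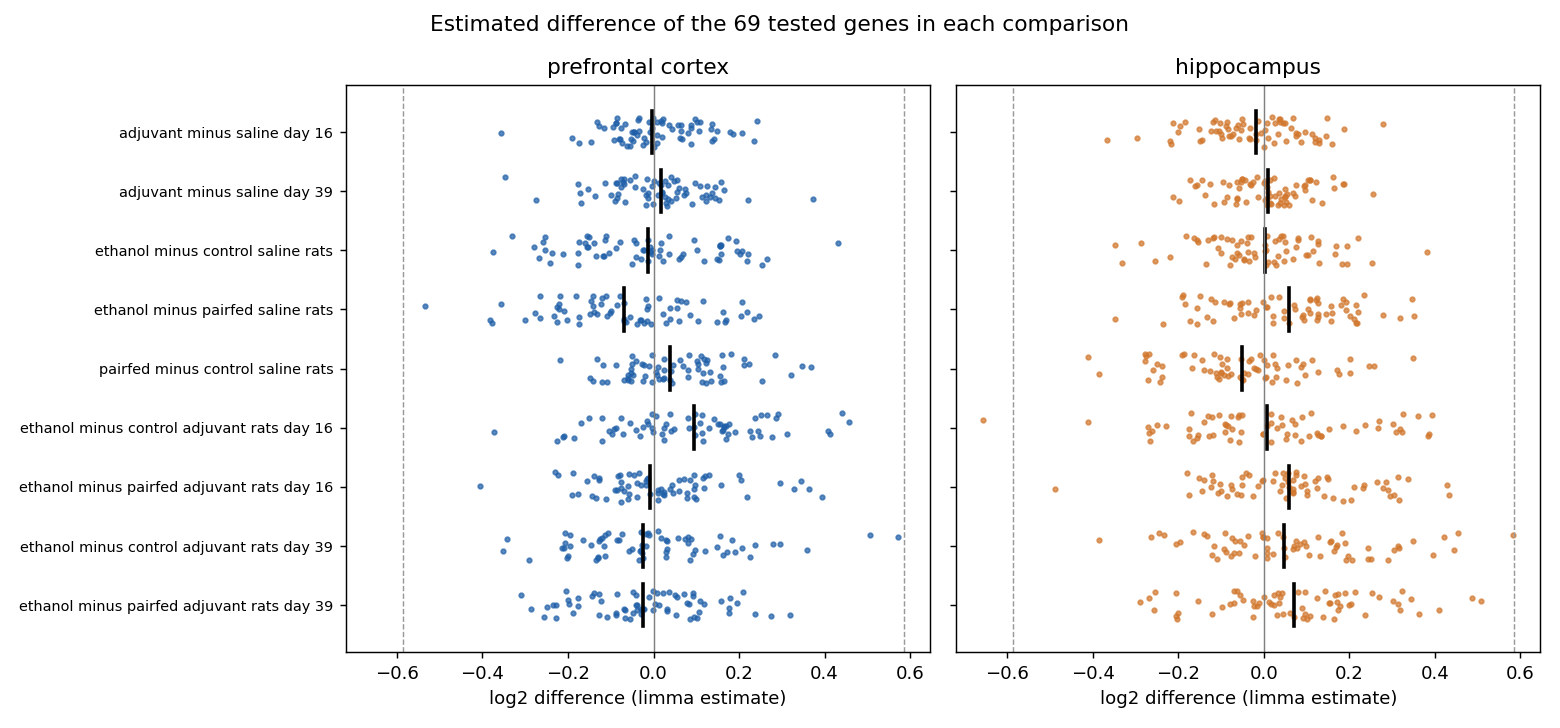
Log2 difference of each of the 69 tested genes (horizontal axis, limma estimate) in 9 comparisons (rows), in PFC (left) and HPC (right). Points are genes, black bars medians of the genes and dashed lines a 1.5-fold change; the medians stay between -0.07 and 0.09.

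Among saline rats the 3 diets of the dam were compared with the 2 days weighted equally, 11 rats a diet. In PFC, limma called 0 of 69 genes for ethanol against control (0% of probes), 0 for ethanol against pairfed (0%) and 0 for pairfed against control (0%). At an unadjusted p below 0.05 there were 2 genes for ethanol against control, against 5.17% of probes, 3 for ethanol against pairfed, against 4.2%, and 1 for pairfed against control, against 5.14%. In HPC, limma called 0 of 69 genes in each of these comparisons (0% of probes in each). The counts at an unadjusted p below 0.05 were 3 for ethanol against control, against 3.06% of probes, 1 for ethanol against pairfed, against 2.57%, and 3 for pairfed against control, against 3.07%. Ethanol minus pairfed medians of the genes were -0.07 in PFC, with 47 of 69 estimates negative, and 0.06 in HPC, with 43 positive. Of all probes, 49.8% had a positive estimate in PFC and 51.8% in HPC, and the genes share arrays, so their signs are not independent. Ethanol minus control medians were -0.01 in PFC and 0.00 in HPC. The typical half-width of a gene's 95% interval was 0.31 in PFC and 0.32 in HPC. Comparisons that have a diet in common share its arrays.

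Ndufb2 had the smallest p in saline PFC. Its lowest, median and highest values were 10.77, 11.72 and 12.52 in ethanol rats, 11.75, 12.41 and 12.60 in pairfed rats and 11.41, 12.20 and 12.79 in control rats. The ethanol median lay below the lowest pairfed value, and the groups overlapped. Differences were -0.53 ± 0.17 (SE; limma adjusted p = 0.998) for ethanol minus pairfed and -0.38 ± 0.17 (SE; limma adjusted p = 0.954) for ethanol minus control. Without the array that did not match its rat, the difference from pairfed was -0.56 (adjusted p = 0.998). Other saline PFC genes at an unadjusted p below 0.05 were Ndufb5 at -0.36 ± 0.16 and Cox7b at -0.38 ± 0.19 for ethanol minus pairfed, Ndufs6-ps1 at 0.43 ± 0.21 for ethanol minus control and Ndufa1 at 0.37 ± 0.15 for pairfed minus control (log2 ± SE). Without the unmatched array they were -0.39 ± 0.17 for Ndufb5, -0.48 ± 0.19 for Cox7b and 0.38 ± 0.16 for Ndufa1, and Cox4i1, a subunit of complex IV, reached an unadjusted p below 0.05 at -0.38 ± 0.18, beside -0.30 ± 0.17 with it.

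In saline HPC the smallest p was that of Cox6a1. Its lowest, median and highest values were 13.56, 13.87 and 14.26 in ethanol rats, 12.84, 13.61 and 14.29 in pairfed rats and 12.996, 14.11 and 14.45 in control rats. Pairfed rats had the lowest median of the 3 overlapping groups. Differences were -0.41 ± 0.15 (SE; limma adjusted p = 1.00) for pairfed minus control and 0.35 ± 0.15 (SE; limma adjusted p = 1.00) for ethanol minus pairfed. For ethanol minus control, Uqcrfs1, the Rieske iron-sulfur protein of complex III, was at -0.35 ± 0.15, Ndufaf3 at -0.33 ± 0.14 and Ndufb5 at 0.25 ± 0.12 (log2 ± SE). For pairfed minus control, Ndufb5 was at 0.25 ± 0.12 and Atp5f1a, the alpha subunit of ATP synthase, at 0.35 ± 0.15.

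In adjuvant rats, ethanol was compared with control and pairfed rats on each day. On day 16 in PFC, limma called 0 of 69 genes for ethanol against control (0% of probes), and 5 reached an unadjusted p below 0.05, against 4.73% of probes. All 5 had positive estimates, beside 2.47% of probes higher and 2.26% lower at that threshold. Estimates were positive for 45 of the 69 genes, with a median of 0.09, and for 51.4% of all probes. They were positive for 20 of 29 complex I, 7 of 11 complex IV and 10 of 13 complex V genes. The genes share arrays, so their signs are not independent. With median scaling the median was 0.26 for the genes, 0.15 for the 2899 PFC probes above a signal of 9 and 0.07 for all probes.

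Ndufa8 had lowest, median and highest values of 10.99, 11.40 and 11.92 in 9 ethanol rats, against 9.83, 11.003 and 11.53 in 9 control rats, a difference of 0.46 ± 0.16 (SE; limma adjusted p = 1.00). Ndufb7, a subunit of the membrane arm, had 10.74, 11.14 and 11.49 in ethanol rats, against 10.27, 10.76 and 11.11 in control rats, a difference of 0.44 ± 0.18 (SE; limma adjusted p = 1.00). Atp5pf, coupling factor 6 of the ATP synthase stalk, had 11.79, 12.41 and 12.60 in ethanol rats, against 11.01, 12.12 and 12.27 in control rats, a difference of 0.41 ± 0.16 (SE; limma adjusted p = 1.00). In each the ethanol median was above the control median and the groups overlapped. The remaining genes were Ndufb9 at 0.41 ± 0.19 and Ndufs7, an iron-sulfur core subunit, at 0.29 ± 0.14 (log2 ± SE). Against pairfed rats on day 16 in PFC, limma called 0 of 69 genes (0% of probes), 3 reached an unadjusted p below 0.05 against 2.5% of probes, and the median was -0.01. They were Atp5me at 0.36 ± 0.16, Uqcrfs1 at 0.33 ± 0.15 and Cox5a at -0.41 ± 0.20 (log2 ± SE). Both comparisons use the same ethanol arrays.

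In HPC on day 16, limma called 0 of 69 genes for ethanol against control (0% of probes) and 0 against pairfed (0%). There were 3 genes at an unadjusted p below 0.05 against control, with 4.51% of probes, and 0 against pairfed, with 5.35%. They were Ndufaf5 at 0.32 ± 0.14, Atp5pd, a stalk subunit of ATP synthase, at 0.38 ± 0.17 and Ndufb4 at 0.39 ± 0.17 (log2 ± SE). Ndufb4 was detected on 1 of 9 ethanol and 1 of 9 control arrays. Cox8b had the estimate farthest from 0 in the ethanol minus control comparison, -0.66 ± 0.35 (SE; limma adjusted p = 0.998), and Ttr stood at -1.86 ± 0.85 in the same arrays. On day 39 Cox8b stood at 0.58 ± 0.36 (SE; limma adjusted p = 0.751) and Ttr at 0.91 ± 0.87. Of the other choroid plexus probes, Aqp1, Folr1 and Kl stood at -0.67 ± 0.54, -0.32 ± 0.32 and -0.45 ± 0.35 on day 16 and at 0.89 ± 0.56, 0.32 ± 0.33 and 0.37 ± 0.36 on day 39. Kcnj13 stood at 0.48 ± 0.24 on day 16 (unadjusted limma p = 0.049), opposite in sign to Cox8b, and at 0.10 ± 0.25 on day 39. The part of choroid plexus in the Cox8b values was not tested.

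On day 39 in PFC, Sdhc had the smallest unadjusted p of the 69 genes in any comparison within a tissue. Its lowest, median and highest values were 11.95, 12.48 and 12.70 in ethanol adjuvant rats, 11.63, 12.18 and 12.75 in pairfed adjuvant rats and 10.62, 12.04 and 12.37 in control adjuvant rats. In saline rats of that day they were 12.22, 12.53 and 13.18 in ethanol, 12.12, 12.31 and 12.63 in pairfed and 12.23, 12.41 and 12.81 in control rats. Control adjuvant rats held the lowest value and overlapped every other group. The ethanol minus control difference was 0.57 ± 0.15 (SE; limma p = 0.00036, adjusted p = 0.793), and the ethanol minus pairfed difference 0.19 ± 0.15. Leaving out each of the 9 control adjuvant arrays in turn gave 0.42 to 0.66 for ethanol minus control, and -0.38 to -0.29 for the adjuvant minus saline difference given above, which draws on the same arrays. The limma p of ethanol minus control then ran from 5.3e-05 to 0.0036 (adjusted p 0.638 to 0.998). The difference of 0.42 and the highest p came without replicate 3, an array with 7905 probes detected beside a PFC median of 9868. In HPC the day 39 estimates of Sdhc were 0.24 ± 0.19 for ethanol minus control and 0.10 ± 0.13 for adjuvant minus saline (log2 ± SE).

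The other genes of the PFC day 39 comparison of ethanol with control were Sdhb, the iron-sulfur subunit of complex II, at 0.30 ± 0.15, Ndufa1 at 0.36 ± 0.17, Ndufaf4 at 0.51 ± 0.24 and Cycs at -0.34 ± 0.16 (log2 ± SE). Cycs had 12.10, 12.75 and 13.20 in ethanol rats, against 12.75, 13.03 and 13.63 in control rats. Ndufaf4 had 6.99, 7.48 and 7.74 in ethanol rats, against 4.74, 7.33 and 7.98 in control rats. Both genes had overlapping groups, and for Ndufaf4 the medians lay close together beside a low tail in control rats. In counts, limma called 0 of 69 genes (0% of probes) with 5 at an unadjusted p below 0.05, against 4.72% of probes. Against pairfed it called 0 (0% of probes) with 0 at an unadjusted p below 0.05, against 3.7%.

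In HPC on day 39, limma called 0 of 69 genes for ethanol against control, where 0.0131% of probes were called, and 3 reached an unadjusted p below 0.05, against 7.33% of probes. Against pairfed it called 0 (0% of probes), and 3 reached an unadjusted p below 0.05, against 5.44%. Atp5f1c, the gamma subunit of the ATP synthase rotor, had 11.32, 11.78 and 12.04 in 9 ethanol rats, against 11.83, 12.03 and 12.38 in 8 control rats, a difference of -0.39 ± 0.14 (SE; limma adjusted p = 0.517). Its groups overlapped. Ndufa7 had 8.78, 9.07 and 9.23 in ethanol rats, 8.12, 8.56 and 9.28 in 7 pairfed rats and 8.07, 8.80 and 9.34 in control rats. It was tightly grouped in ethanol rats and more spread in both other diets, with differences of 0.51 ± 0.19 (SE; limma adjusted p = 0.850) against pairfed and 0.40 ± 0.18 (SE; limma adjusted p = 0.636) against control. Ndufab1, the acyl carrier protein of complex I, had 11.54, 12.20 and 12.43 in ethanol rats, against 10.78, 11.95 and 12.38 in pairfed rats, a difference of 0.49 ± 0.18 (SE; limma adjusted p = 0.843). Ndufaf5 was at 0.36 ± 0.15 against pairfed and Atp5mg, a membrane subunit of ATP synthase, at 0.45 ± 0.23 against control (log2 ± SE).

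Day 39 was set against day 16 in saline rats, which differ in age as well as in time since the injection. Limma called 0 of 69 genes in PFC (0% of probes) and 0 in HPC (0%). At an unadjusted p below 0.05 there was 1 gene in PFC, against 5.61% of probes, and 5 in HPC, against 8.53%. In PFC it was Cox5a, a subunit of complex IV, with 10.28, 12.04 and 12.46 in 18 day 39 rats, against 11.95, 12.17 and 12.75 in 15 day 16 rats, a difference of -0.33 ± 0.15 (SE; limma adjusted p = 0.882), or -0.35 ± 0.15 without the unmatched array. In HPC, Atp5f1d had 11.33, 12.33 and 12.68 in day 39 rats, against 11.10, 11.96 and 12.50 in day 16 rats, a difference of 0.35 ± 0.13 (SE; limma adjusted p = 0.401). Both pairs of groups overlapped, and the day 16 saline arrays also serve the adjuvant comparison of Atp5f1d above. The other HPC genes were Ndufa7 at 0.33 ± 0.14, Ndufb3 at 0.32 ± 0.15, Sdha at 0.33 ± 0.16 and Ndufaf4 at -0.34 ± 0.17 (log2 ± SE).

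Differences between responses had wider intervals. For the adjuvant response on day 39 minus that on day 16, limma called 0 of 69 genes in each tissue (0% of probes), and 1 gene reached an unadjusted p below 0.05 in PFC, against 4.55% of probes, and 1 in HPC, against 3.8%. They were Cox5a at 0.41 ± 0.18 in PFC and Atp5f1d at -0.45 ± 0.17 in HPC (log2 ± SE), which rest on the saline arrays just described. Without the unmatched array Cox5a was at 0.43 ± 0.19, and Atp5mc2 also reached an unadjusted p below 0.05, at -0.36 ± 0.17 beside -0.34 ± 0.17 with it. For the day 16 response of ethanol rats minus that of control rats, limma called 0 of 69 in each tissue (0% of probes), with 4 genes at an unadjusted p below 0.05 in PFC, against 5.32% of probes, and 2 in HPC, against 4.3%. The PFC genes were Ndufb7 at 0.65 ± 0.31, Ndufs7 at 0.52 ± 0.25, Atp5mg at 0.56 ± 0.28 and Ndufab1 at -0.52 ± 0.24, and the HPC genes were Uqcrfs1 at 0.57 ± 0.28 and Ndufb5 at -0.54 ± 0.22 (log2 ± SE). For the response of ethanol rats minus that of pairfed rats, limma called 0 of 69 in each tissue (0% of probes), with 0 genes at an unadjusted p below 0.05 in PFC, against 3.1% of probes, and 1 in HPC, against 3.68%, which was Uqcrfs1 at 0.58 ± 0.28. Without the unmatched array, Cox7b reached an unadjusted p below 0.05 in PFC at 0.78 ± 0.35, beside 0.58 ± 0.35 with it. The typical half-width of the 95% interval in these diet comparisons was 0.58 in PFC and 0.60 in HPC. Intervals within 1.5-fold either way were found for 6 genes in PFC and 5 in HPC against control, and for 2 in PFC and 8 in HPC against pairfed. The intervals of most genes thus reached beyond a 1.5-fold change. Larger estimates were not called either, the lowest being -0.97 in HPC against pairfed.

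The adjuvant response was also set between the tissues in a fit of 171 arrays with the rat as a random block. For the response in PFC minus that in HPC, limma called 0 of 69 genes on day 16 (0% of 14441 probes) and 0 on day 39 (0%). At an unadjusted p below 0.05 there were 3 genes on day 16, against 4.66% of probes, and 4 on day 39, against 5.36%. On day 16 they were Ndufaf3 at 0.34 ± 0.13, Cox6c at 0.43 ± 0.20 and Ndufs8 at 0.31 ± 0.15 (log2 ± SE). Without the unmatched array they were 0.35 ± 0.14 for Ndufaf3, 0.45 ± 0.20 for Cox6c and 0.27 ± 0.16 for Ndufs8, the last with an unadjusted p of 0.080. On day 39 they were Atp5po at 0.46 ± 0.18, Ndufab1 at 0.30 ± 0.14, Sdhc at -0.44 ± 0.16 and Ndufaf4 at -0.46 ± 0.21 (log2 ± SE). Over the 26 comparisons within a tissue, which share arrays, 55 of 1794 gene tests (3.07%) had an unadjusted p below 0.05, against 4.70% of all probe tests.

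Repeat arrays of the same rat show the spread among arrays without a change of rat. They were 9 arrays of 1 rat in PFC and 16 arrays of 4 rats in HPC. For the median gene the SD among repeat arrays was 0.32 in PFC and 0.32 in HPC, and the SD among rats of a group was 0.36 in PFC and 0.38 in HPC. Repeats thus spread nearly as widely as rats. Chip means were not removed from either SD, while the main fits had a chip term, so these values are no floor for the comparisons. For Atp5mk in PFC the SD among repeats was 0.82, beside 0.46 among rats after removal of group and chip means. In PFC 27 genes (39.1%, against 30.9% of all probes) and in HPC 19 genes (27.5%, against 33.3%) had repeats that spread at least as widely as the rats did. The labels of 3 repeat arrays conflict in the injection, and these arrays enter the repeat spread only.

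**Figure D4:**
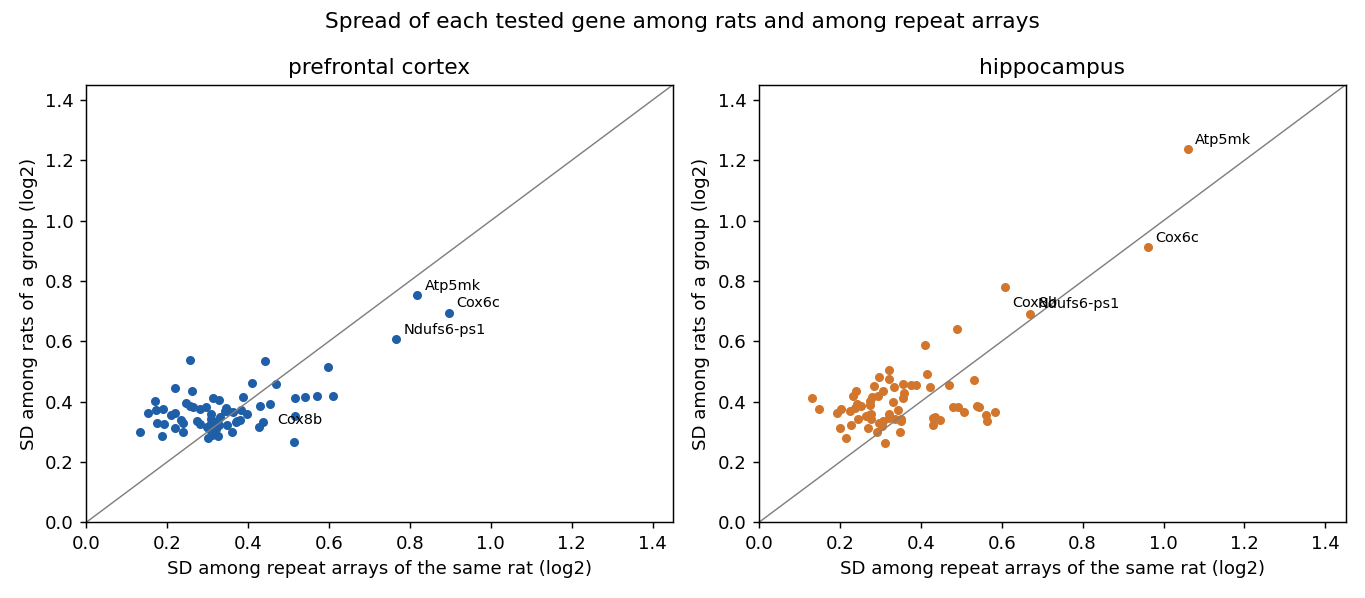
SD of each of the 69 tested genes among rats of a group (vertical axis, log2) against that among repeat arrays of the same rat (horizontal axis, log2), in PFC (left) and HPC (right). Each point is a gene; the medians are 0.36 among rats and 0.32 among repeats in PFC and 0.38 and 0.32 in HPC, and Atp5mk and Cox6c have the widest spread among rats in both tissues.

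Part of the spread followed the chip, a slide of 12 arrays. For Atp5mk, the DAPIT subunit of ATP synthase, chip means accounted for 66.7% of the variance within groups in PFC and 77.5% in HPC. For Cox6c, a subunit of complex IV, the shares were 65.3% in PFC and 78.1% in HPC, and for Ndufs6-ps1 37.5% in PFC and 39.6% in HPC. The median gene had 12.2% in PFC and 10.9% in HPC. Chip means of Atp5mk ran from 8.89 to 10.88 in PFC and from 8.01 to 11.34 in HPC. In each tissue a single chip was lowest for all 3 of these probes, which were singled out after their values were seen. Shares above 30% were found for 4 genes in PFC and 3 in HPC, and for 2.94% of all probes in PFC and 3.62% in HPC. Chip was a term in every fit within a tissue.

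Pairs of the genes correlated weakly across arrays. After removal of group and chip means, the median correlation between 2 of the 69 genes was 0.04 in PFC and 0.03 in HPC. Among 3000 probes drawn from all tested ones it was 0.001 in PFC and 0.0006 in HPC. Repeat arrays spread nearly as widely as rats, so these values do not show that the genes varied independently. The highest in HPC, over 84 arrays, was Atp5mk with Ndufaf2 (r 0.71), and the farthest below 0 in PFC, over 87 arrays, was Ndufa10 with Ndufa6 (r -0.50). Such pairs share an array and its signal, and they were picked from all pairs for their size. The median of the 69 genes on a single array, relative to its tissue, ran from -0.19 to 0.30 in PFC and from -0.15 to 0.31 in HPC.

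Whether a gene varied between rats alike in both tissues was asked over the 84 rats. Of 14441 probes, 282 (1.95%) had a correlation between PFC and HPC residuals with an adjusted permutation p below 0.05. Of the 69 genes 2 did, the pair Ndufa10l1 and Ndufa10. Ndufa10l1 had r 0.48 and rho 0.50 (adjusted permutation p 0.0016 and 0.0015), and r 0.41 without the 2 rats farthest from the median. Ndufa10 had r 0.43 and rho 0.48 (adjusted permutation p 0.0056 and 0.0036), and r 0.49 without 2 such rats. Without the rat whose arrays did not match, r was 0.48 for Ndufa10l1 and 0.43 for Ndufa10. With median scaling r was 0.25 for Ndufa10l1 and 0.21 for Ndufa10 (adjusted permutation p 0.394 and 0.554), so the call depends on the normalization. The residuals of the pair correlated with each other with r 0.49 and rho 0.52 over 84 HPC arrays (adjusted permutation p 2.2e-05 and 2.7e-05) and with r 0.25 and rho 0.31 over 87 PFC arrays (adjusted permutation p 0.031 and 0.0064). The pair was named after its values were seen. Its p-values are adjusted over 11 relations and not over all pairs of the 69 genes, so they are a description. Within chips r of the pair ranged from 0.20 to 0.89 in HPC and from -0.11 to 0.53 in PFC, and without the 2 farthest arrays it was 0.45 in HPC and 0.22 in PFC. Whether both probes read 1 transcript was not tested. Over the 69 genes the median cross-tissue r was 0.02, against 0.03 for all probes.

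**Figure D5:**
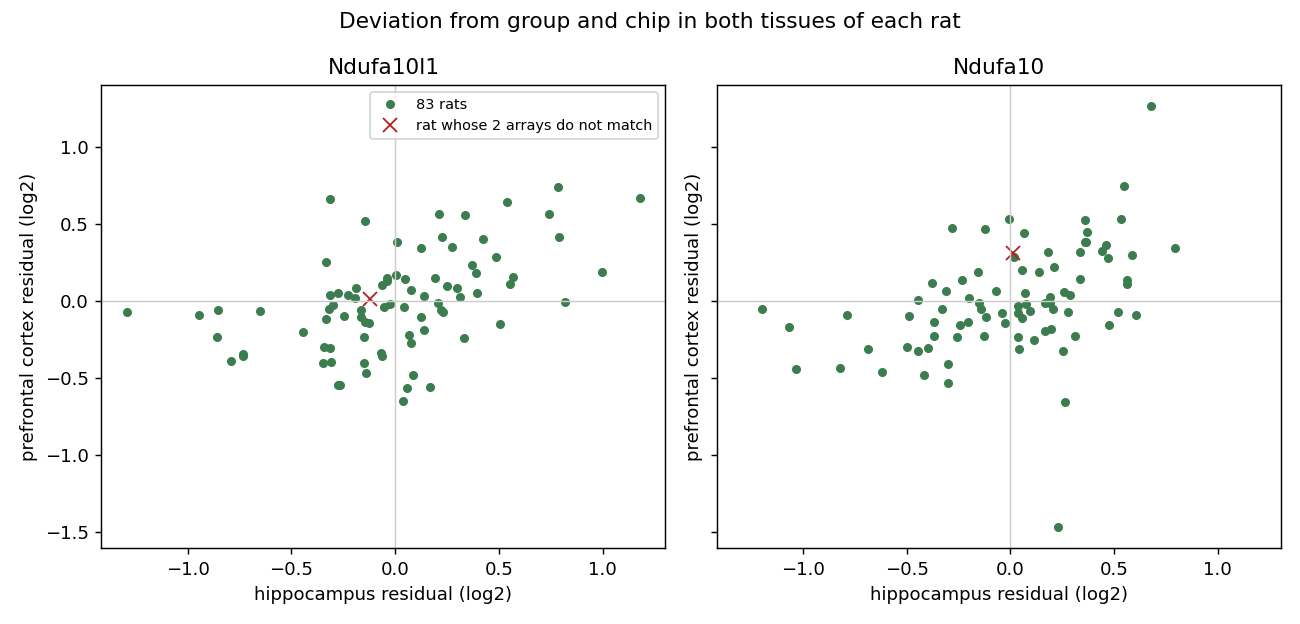
Residual of each rat in PFC (vertical axis, log2) against its residual in HPC (horizontal axis, log2) after removal of group and chip means, for Ndufa10l1 and Ndufa10. Points are 83 rats and the cross is the rat whose arrays did not match; both clouds slope upwards, with r 0.48 for Ndufa10l1 and 0.43 for Ndufa10.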

How the data were processed

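Gene expression was measured on Illumina rat BeadChips, with 192 arrays on 16 chips, of which 87 PFC and 84 HPC arrays entered the fits, 1 per rat. The deposited table of non-normalized values was read as log2 intensities, inferred from their range; for the authors' background step and scanner software the sources used here give nothing. The deposited detection p-values came with these values. A second deposited table holds log2 values that the authors had normalized, with equal distributions within a tissue, and served as an alternative. Per the labels' protocols, 250 ng of RNA was amplified per sample in batches spread over treatments, and 1 HPC sample was excluded for suspected contamination.

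Values were corrected and quantile-normalized with neqc (limma 3.58.1, R 4.3.3, offset 16) over all 192 arrays. Probes detected (p below 0.05) on at least 5 arrays were kept. Each tissue was fitted with lmFit and eBayes on 12 groups with chip as a fixed block, with Benjamini-Hochberg adjustment over all probes. A joint fit used the rat as a random block (statmod 1.5.0; correlation 0.03273). Correlations used numpy 2.4.6 and scipy 1.17.1 (Python 3.11.15) on residuals, with 100000 resamples, two-sided. The procedures were tested on simulated data. Of 22502 probes, 13787 had 1 symbol and 8715 none here. Signal over background and the number of arrays limit the precision.

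The genes, lists and comparisons were chosen with earlier results of these data known. Named genes are members called at adjusted p below 0.05, of which there were none, then those at an unadjusted p below 0.05 among the 5 smallest p in each direction; dim members, isoforms and complex II were named by role. Ndufa10, Ndufa10l1, Atp5mk, Cox6c and the gene pairs were named after their values were seen. The relations of Cox8b to choroid plexus probes were not planned. Alternatives were median scaling, no background correction, the authors' values, other filters, no chip term, chip as a random block, replicate number as a block, hemoglobin or detected-probe covariates, array weights, averaged repeats and single arrays left out.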

Additional observations from a re-analysis of the deposited data

Results flagged for a closer look

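In each of the 12 groups of 5 to 9 arrays per tissue, the highest and lowest array were compared with their nearest neighbour for 4 quantities: the median of the respiratory chain genes, Sdhc, Cox6a2 and Cox8b. Of these 96 checks, 11 found an array apart from the others by Dixon's test, and chance alone flags about 1 check in 20. The median of the respiratory chain genes on single arrays, relative to the tissue, was 0.19 on 1 PFC array of ethanol adjuvant day 16 rats (next 0.09), 0.30 on 1 PFC array of pairfed adjuvant day 39 rats (next 0.10) and -0.15 on 1 HPC array of pairfed saline day 16 rats (next 0.00). Sdhc was 11.88 on 1 PFC array of control saline day 16 rats, below the next at 12.44. Cox6a2 was 7.33 on 1 HPC array of ethanol adjuvant day 16 rats (next 5.49), 4.99 on 1 PFC array of pairfed adjuvant day 39 rats (next 6.33) and 5.86 on 1 PFC array of control adjuvant day 16 rats (next 6.59). Cox8b was 7.40 on 1 HPC array of ethanol saline day 39 rats (next 5.45) and 6.83 on 1 HPC array of pairfed adjuvant day 16 rats (next 5.36). In PFC, Cox8b was 5.50 on 1 array of pairfed saline day 16 rats (next 4.90) and 5.70 on 1 array of control adjuvant day 39 rats (next 5.12).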

How the results depend on the processing

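The count of respiratory chain genes called was 0 in each of the 28 comparisons under every alternative run, 739 values in all. In the main fits at most 0.131% of all probes were called in a comparison, so a count of 0 was likely for any list of this size. The alternatives also refit the same arrays, so the 739 values are not independent. The gene with the smallest p in each comparison kept its direction and its side of the threshold, with limma adjusted p of 0.180 or more. The median of the genes moved by more than a bound in 16 of 739 values, 15 of them under median scaling. The bound was the SD of the genes' median among single arrays after removal of group and chip means, 0.08 in each tissue. Smaller moves counted as unchanged. An example is ethanol minus control in saline HPC, at 0.003 in the main values and -0.07 under median scaling. In 7 comparisons that scaling turned the sign of a moved median. In PFC it gave 0.08 for adjuvant minus saline on day 16 and -0.11 for the day 16 response of ethanol minus control rats. In HPC it gave -0.21 for adjuvant minus saline on day 39, and in adjuvant rats -0.16 for ethanol minus control on day 16, -0.02 for ethanol minus pairfed on day 16 and -0.05 on day 39. For the PFC minus HPC response on day 39 it gave 0.23. With the replicate block the count was 0 in all 28 comparisons, where between 0 and 13 of all probes were called. The median correlation of same-numbered arrays was -0.025 in PFC and 0.039 in HPC, beside 0.008 and -0.0006 for arrays with other numbers. Of 87 PFC arrays 7, and of 84 HPC arrays 27, were nearest to an array of their own number. In HPC, same-numbered arrays were thus somewhat more alike, and the reason was not tested. Correlations between PFC and HPC were lost under median scaling, chosen after seeing the data, at 0.25 for Ndufa10l1 and 0.21 for Ndufa10, and the cause was not tested. Without background correction the PFC minus HPC difference was 0.71 for Cox6a2 and -0.25 for Cox8b. An alternative that used all probes of a gene was not run, since each gene has 1 probe. Genes near background on most arrays, such as Ndufb4 and Cox8c, cannot show small differences.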
